A study of Mus musculus with 6 samples.

Results

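A single droplet library of mouse lungs at embryonic day (E) 13.5 gave 12726 kept cells. Mesenchymal cells were 9446 of them, 74.2% (exact 95% Clopper-Pearson interval 73.46 to 74.98). All 6 libraries of the series together held 63659 cell barcodes. A cell was kept with at least 700 genes and with 0.5 to 10% of its UMIs, the counted molecules, from mitochondrial genes. It was called mesenchymal with at least 5 UMIs summed over the collagen genes Col1a1, Col1a2 and Col3a1, no UMI of the endothelial genes Pecam1 and Cdh5, none of the epithelial gene Epcam and none of the leukocyte gene Ptprc. Cells with at least 5 UMIs of Acta2 and at least 5 of Tagln, 2 contractile genes, were set apart as early smooth muscle and numbered 2436. Endothelial cells, used for comparison, had at least 3 UMIs of Pecam1 and Cdh5, fewer than 5 of the collagens and none of Epcam or Ptprc, and numbered 155. The cells were thus chosen by the measured values of these genes, which describe the choice and are no result.

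The cells came from Cxcl12DsRed/+ lungs, in which a red fluorescent protein is knocked into the first exon of one Cxcl12 allele, so that every cell carried a single functional Cxcl12 copy. Lungs of 2 to 4 animals were mixed for each age, and the protocol names 2 gates after removal of CD45+ and EpCAM+ cells, CD31+/TdTomato+ endothelium and CD31-/TdTomato+ cells enriched for mesenchyme. How many cells of each gate were loaded is not given in the sources used here, so the share of mesenchymal cells is that of this library and not of the lung. The study's results name only DsRed+/CD31+ endothelium as sequenced. The mesenchymal cells, 74.2% of those kept, had no UMI of Pecam1, the gene of CD31, by rule. Before that step of the rule, 12213 kept cells reached the collagen limit, and 194 of them had a Pecam1 or Cdh5 UMI. Which gate or mix entered this library is not settled. The other 3 sorted libraries had the same genotype and came from E15.5, E18.5 and postnatal day 8. The 2 unsorted E18.5 lung libraries, homozygous null and heterozygous, were not analysed here beyond their barcodes. With 1 library at each age no value has a replicate check, no p-value is given, and every interval covers counting error in these cells only.

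Fibroblast-like mesenchyme fills the space between the branching airways of the embryonic lung. It lays down collagens and elastic fibres, sends growth factors to the epithelium and the vessels, and gives rise to airway and vascular smooth muscle, pericytes and fibroblasts. CXCL12, a secreted chemokine, acts through the receptor CXCR4 and is bound and removed by ACKR3. The T-box factors TBX4 and TBX5, the forkhead factor FOXF1 and the basic helix-loop-helix factor TCF21 mark the mesenchyme of the lung field, and Hedgehog, Wnt, FGF, BMP and retinoic acid signals pass between it and the epithelium.

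The E13.5 library held 13098 barcodes and 102675363 UMIs. A mesenchymal cell had a median of 6858 UMIs (middle range 5390 to 8882), 2450 genes and 4.40% mitochondrial UMIs. Of the 12726 kept cells, 513 fell under the collagen limit, 194 of the rest had a Pecam1 or Cdh5 UMI, 137 had an Epcam UMI and 0 had a Ptprc UMI. The limits lay within continuous ranges. A total of 142 mesenchymal cells had exactly 5 collagen UMIs and 119 kept cells had exactly 4, against a median of 21 in the mesenchymal cells. Acta2 of at least 5 with Tagln under 5 was seen in 1243 mesenchymal cells, and 53 had 4 Acta2 UMIs with enough Tagln. Barcodes shared with the other libraries numbered 26 to 54, of which 18 to 36 were mesenchymal cells. A UMI matrix counts molecules at their 3′ end, so levels in UMIs per 1000000 (CPM) do not depend on gene length.

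The label held against markers that the rule did not use. Of 20 further mesenchyme genes, 19 reached 10 CPM and 17 reached 50 CPM. Mfap4, a microfibril protein, stood at 1040 CPM and was found in 96.6% of cells. The PDGF receptor genes Pdgfrb and Pdgfra stood at 142 and 117 CPM. Vim, an intermediate filament gene, stood at 822 CPM but does not set these cells apart, with 1810 CPM in early smooth muscle and 2875 in endothelial cells. The 20 genes together summed to 4227 CPM, against 4457 in early smooth muscle and 3370 in endothelial cells. The exception was Thy1, a surface protein of later fibroblasts, at 0.495 CPM. The rule's own collagens stood at 1235 CPM for Col3a1, 1232 for Col1a1 and 1210 for Col1a2.

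Defining markers of endothelium, epithelium, blood leukocytes and glia were low, with Pecam1, Cdh5, Epcam and Ptprc at 0 by rule, while lists of other mesenchymal lineages were partly present. Of 15 endothelial genes 3 reached 10 CPM, the highest being Ramp2, a receptor subunit, at 50.8 CPM, a gene whose exons overlap Vps25 on the same strand. Cldn5, a tight junction gene of endothelium, stood at 2.02 CPM against 1650 in the endothelial cells of the library. Of 14 epithelial genes only Id2 (129 CPM) and Bex1 (20.98 CPM) reached 10 CPM, and neither is limited to epithelium. Of 12 immune genes and of 10 neural crest and glial genes 0 reached 10 CPM, and Sox10, a factor of neural crest, had no UMI. The 10 smooth muscle genes outside the rule summed to 750.1 CPM against 5240 CPM in the early smooth muscle cells. Of 10 pericyte genes 6 reached 10 CPM (Gucy1b1 led at 51.4), of 11 chondrocyte genes 5 (Col11a1 at 92.0), of 10 mesothelial genes 3 (Efemp1 at 73.9) and of 9 erythroid genes 4 (Hbb-y at 135). Of 10 cardiomyocyte genes 0 did.

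Mitochondrial and haemoglobin genes, ribosomal protein genes with Rpl or Rps symbols and Malat1 were set aside. The most abundant other transcripts were of housekeeping genes and 2 genes of growth control. Eef1a1, a translation elongation factor, led with 5916 CPM. Fau, a ribosomal protein gene without such a symbol, followed at 4702, then Tpt1 at 4285, Actb at 4071 and Ptma at 3991 CPM. Of the 15 leading genes, 12 share a stretch of 60 bases near the transcript end with another annotated gene, so their exact levels are uncertain. Ptn does not share one. It encodes pleiotrophin, a heparin-binding growth factor, and stood at 3783 CPM (3769 to 3798) in 96.6% of cells, against 1196 CPM in early smooth muscle and 125 CPM in endothelial cells. Cdkn1c, an imprinted inhibitor of the cell cycle, stood at 2140 CPM and had a UMI in 99.3% of cells. Hsp90ab1 reached 3127, Ppia 2692, Npm1 2519, Tmsb4x 2508, H3f3b 2379, Actg1 2358, Tmsb10 2317 and Ftl1 2197 CPM.

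**Figure D1:**
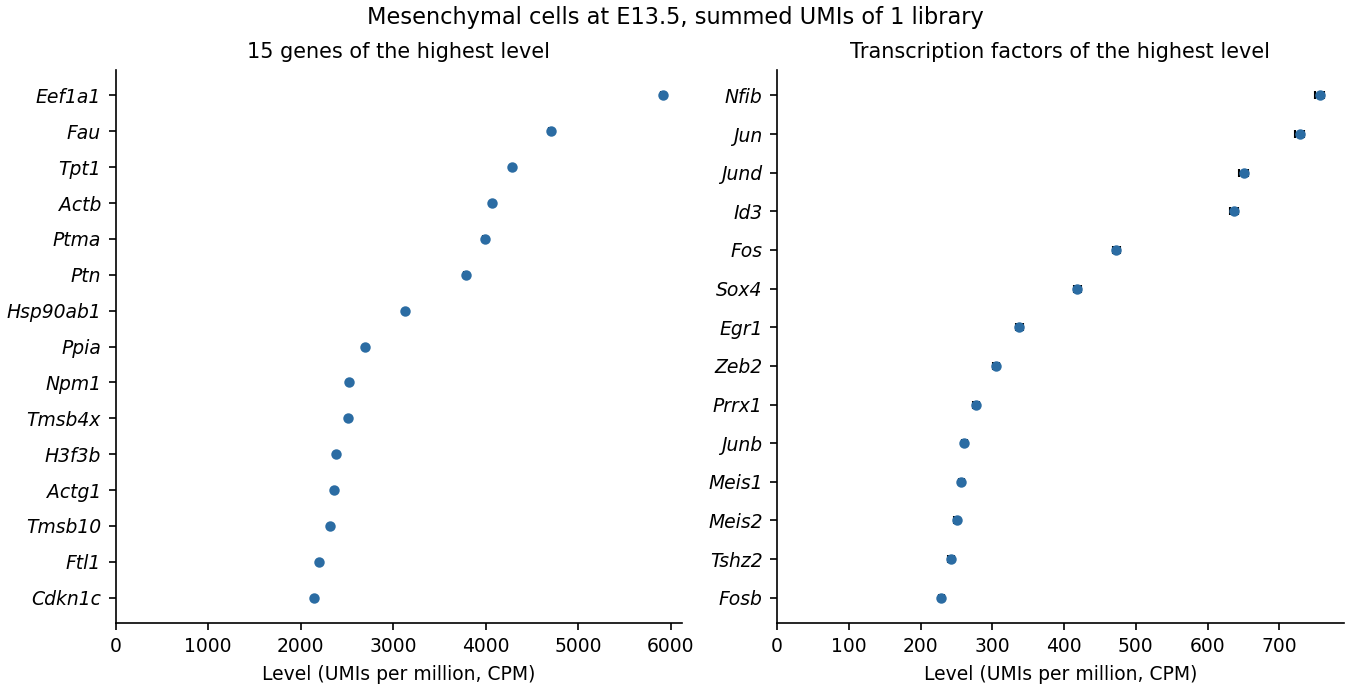
Levels in UMIs per 1000000 (x axes) of the 15 leading genes and of 14 leading transcription factors in the 9446 mesenchymal cells, with exact 95% Poisson intervals for counting error that are mostly narrower than the points. Ptn, a growth factor, lies among the housekeeping genes at 3783 CPM, and Nfib leads the factors at 757 CPM.

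Among transcription factor genes, those of the nuclear factor I, AP-1, ID and TALE homeobox families led. Of 354 genes in the families searched, 149 reached 10 CPM, 62 reached 50 CPM and 33 had no UMI. Nfib, a nuclear factor I gene needed for lung maturation, stood at 757 CPM in 96.9% of cells. The immediate early genes Jun, Jund, Fos, Egr1, Junb and Fosb stood at 728, 650, 473, 338, 261 and 229 CPM. These genes are known to respond to tissue dissociation, and a list of 20 such genes summed to 4061 CPM in the mesenchymal cells, 4523 in early smooth muscle and 2816 in endothelial cells of the same digest. The part of dissociation in these levels was not tested.

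The other leading factors are linked to patterning and mesenchyme. Id3, a dominant negative inhibitor of bHLH factors and a BMP target, stood at 637 CPM and Sox4 at 419. The TALE homeobox genes Meis1 and Meis2 stood at 257 and 250.4, Zeb2 at 305, Prrx1 at 278 and Tshz2 at 242 CPM. Prrx1, a homeobox gene of mesenchyme, stood at 9.87 CPM in endothelial cells. The lung field factors were lower and present in fewer cells. Tcf21 stood at 101.0 CPM with a UMI in 39.6% of cells, Tbx5 at 56.6 CPM in 28.3%, Foxf1 at 51.4 CPM in 21.1% and Tbx4 at 28.6 CPM in 17.1%. Of 38 Hox genes 10 reached 10 CPM, led by Hoxa5 at 137 CPM.

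Growth factor genes followed a steep order. After Ptn came Mdk, which encodes midkine, a growth factor related to pleiotrophin, at 1619 CPM, and Dlk1, an imprinted NOTCH-related ligand, at 1206 CPM. Igf1 stood at 351, Cxcl12 at 255, Rspo3, a Wnt agonist, at 134 and Tgfb2 at 119 CPM. Fgf10, the ligand that draws out epithelial buds, was low at 15.6 CPM with a UMI in 9.59% of cells, and Wnt2, another signal of the distal mesenchyme, stood at 31.0 CPM. In all, 14 of 50 ligand genes reached 50 CPM.

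Receptors were of moderate level. Fzd2, a Wnt receptor, led at 174 CPM, Gas1, a Hedgehog co-receptor, stood at 160 CPM and Ednra, the endothelin A receptor, at 135 CPM. Of 52 receptor genes 16 reached 50 CPM, and of 23 secreted inhibitors and binding proteins 7 did. The most abundant of the latter were Igfbp5 at 889, Fstl1 at 443, Sfrp2 at 403 and Sfrp1 at 302 CPM. The SFRP proteins bind and hold back Wnt ligands. Target genes of the pathways ranged widely. Ptch1, the Hedgehog receptor and target, stood at 67.2 CPM and Gli1 at 18.1, none of 11 Wnt targets reached 50 CPM (Nkd1 led at 18.9), none of 9 FGF targets did (Spred1 led at 33.5), and 4 of 10 BMP targets did. Of the retinoic acid genes, the binding protein gene Crabp1 stood at 576 CPM, while Aldh1a2, the enzyme that makes retinoic acid, stood at 42.6 CPM.

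Of 44 matrix genes 30 reached 50 CPM. Sparc, a collagen-binding protein, led at 1354 CPM, Gpc3, a heparan sulphate proteoglycan, stood at 881, Mgp at 709, the small proteoglycan Dcn at 623 and Eln, the gene of elastin, at 341 CPM. Of the collagen genes outside the rule, Col5a2 was highest at 320 CPM. Dcn and Mgp differ in spread: Dcn had a UMI in 57.0% of cells and Mgp in 74.9%. Imprinted genes stood high as a list, summing to 9538 CPM against 3655 in endothelial cells, with Meg3 at 1917 CPM beside Cdkn1c and Dlk1. H19, a maternally expressed imprinted RNA, went the other way, at 749 CPM against 1552 in endothelial cells.

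Cxcl12 (ENSMUSG00000061353, mm10 chromosome 6, 117168535 to 117181367, plus strand), the gene that carries the reporter, stood at 255 CPM (251 to 259) and had a UMI in 62.5% of the mesenchymal cells (61.6 to 63.5). The library is labelled as a Cxcl12+ sort, and both gates that the protocol names take cells positive for the red reporter. These values thus describe cells selected on the reporter of this gene and not the mesenchyme of the lung. Applied to the older libraries, the rule found 841 cells (E15.5), 132 (E18.5) and 27 (postnatal day 8), in which Cxcl12 stood at 186, 103 and 10.6 CPM. The last value rests on 2 UMIs. Age, library and gate cannot be told apart. Its receptor Cxcr4 stood at 1.90 CPM and Ackr3 at 28.6 CPM in the E13.5 cells.

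To compare cells of unequal depth, each cell was thinned at random to 4000 UMIs, which 8741 mesenchymal cells reached and 705 did not. At that depth 49.4% of cells held a Cxcl12 UMI (48.3 to 50.4), 48.8% of early smooth muscle cells and 82.4% of endothelial cells (74.9 to 88.4). Without thinning these shares were 62.5%, 66.3% and 81.9%, at median depths of 6858, 9374 and 6680 UMIs. Free RNA in droplets gives some UMIs to cells that do not express a gene. Of 10 kept cells with at least 2 Epcam UMIs, under 5 collagen UMIs and no Pecam1 or Cdh5 UMI, epithelial by these genes, 1 had a Cxcl12 UMI, at a median depth of 13280 UMIs. That is a share of 10.0% with an interval of 0.253 to 44.5, so the background is known only roughly.

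**Figure D2:**
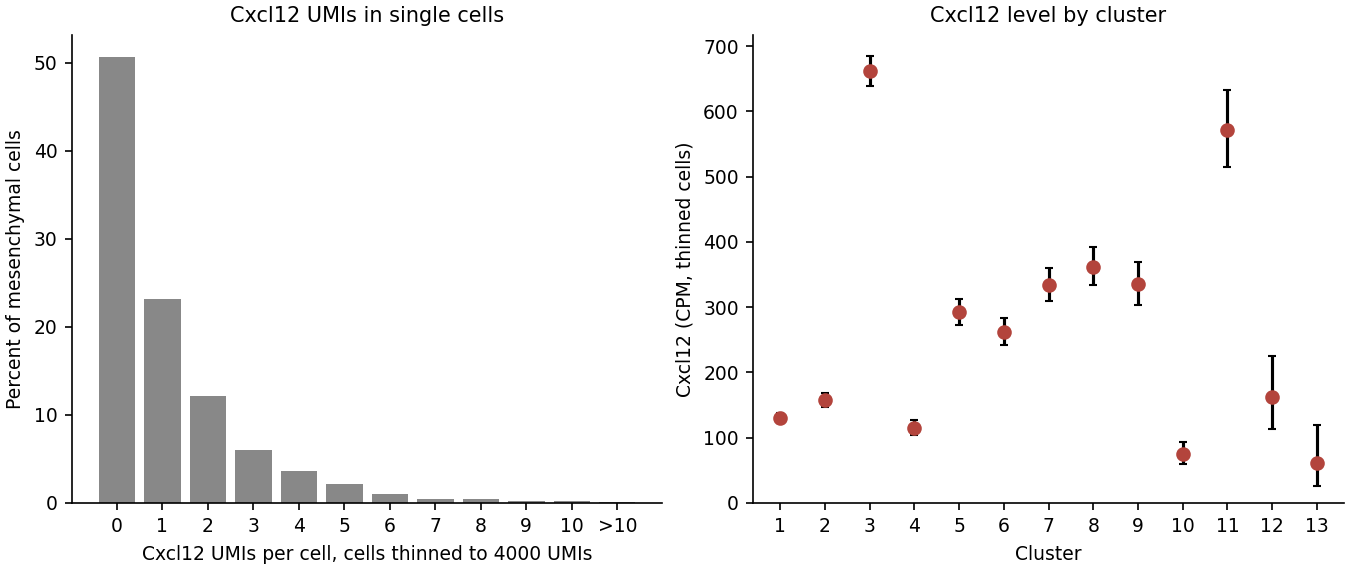
Left, percent of thinned mesenchymal cells (y axis) by their number of Cxcl12 UMIs (x axis); 50.6% held 0. Right, Cxcl12 level in UMIs per 1000000 (y axis) in each of 13 clusters (x axis) with exact 95% Poisson intervals; clusters 3 and 11 stand at 662 and 572 CPM, and cluster 13 at 60.6.

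At 4000 UMIs per cell, 4425 cells (50.6%) had 0 Cxcl12 UMIs and are called Cxcl12-zero, and 1231 (14.1%) had at least 3 and are called Cxcl12-high. At this level many Cxcl12-zero cells can be cells in which the transcript was missed. As the cells were sorted for the Cxcl12 reporter, neither share is that of lung mesenchyme. Their median depths before thinning were 7249 and 6630 UMIs. A gene was compared with at least 50 CPM in either group and called past 2-fold, after 0.5 CPM was added to both levels. Of 3090 genes, 62 were higher in Cxcl12-high cells (2.01%) and 37 were lower (1.2%). Cxcl12 itself defined the groups and is not among them. With genes of at least 20 CPM the 2 directions together counted 227 genes, and with at least 100 CPM they counted 50.

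The chemokine gene Cxcl13 had the largest ratio. It stood at 857 CPM in Cxcl12-high and 128 CPM in Cxcl12-zero cells (log2 ratio 2.74, interval 2.67 to 2.82). Dkk2, which encodes a secreted Wnt antagonist, stood at 255 against 43.9 CPM (2.53). Postn, the matrix protein periostin, stood at 330 against 71.3 CPM (2.20), and Crabp1, which binds retinoic acid, at 1382 against 322 CPM (2.10). The neuropeptide gene Calca (2.66), the pentraxin Ptx3 (2.24), the fibulin Efemp1 (2.21), the factor genes Ebf2 (2.02) and Ebf3 (133 against 32.7 CPM) and the secreted protein gene Egfl6 (1.90) completed the 10 with the largest ratios.

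Lung field factors were among the lower genes. Foxf1, a forkhead gene of lung mesenchyme and Hedgehog target, stood at 8.54 CPM in Cxcl12-high and 62.5 CPM in Cxcl12-zero cells (log2 ratio -2.80, interval -3.35 to -2.43). Tcf21 stood at 36.0 against 128.5 CPM (-1.82) and Tbx5 at 20.3 against 68.0 CPM (-1.72). Col13a1, a transmembrane collagen (-2.26), Slc38a5, an amino acid transporter (-1.99), Gyg, which primes glycogen (-1.78), Nexn, an actin-binding protein whose exons overlap Gm43185 (-1.72), and Ppp1r14a, an inhibitor of myosin phosphatase (-1.60), were also lower. Hbb-y (-3.72), an embryonic haemoglobin gene, had the lowest ratio, and Hba-a1 (-2.74), an adult one, came next after Foxf1. Both rested on very few cells. Only 2 mesenchymal cells had 1% or more haemoglobin UMIs, they held 86.6% of all 17210 haemoglobin UMIs, and 7434 cells had none. Without those 2 cells the ratio of Hbb-y was -0.05.

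Over all genes compared, 2.01% were higher and 1.2% lower, with a median log2 ratio of -0.01. Of 5 smooth muscle genes compared, 1 was lower (Mylk, -1.43) and 0 higher, with a median of -0.31. Of 7 secreted inhibitors, 3 were higher (Dkk2, Sfrp1 at 657 against 207 CPM and Sfrp2 at 716 against 300 CPM) and 0 lower, with a median log2 ratio of 0.95. Of 33 matrix genes 2 were higher, Postn and Mfap5, and 0 lower. Of 17 ligands 3 were higher (Igf1, Slit2 and Gdf10) and 1 lower (Cxcl14). Of 12 collagens 2 were higher, Col12a1 at 148 against 44.4 CPM (1.73) and Col14a1 (1.02), and Col13a1 was lower. Of 17 receptors 3 were higher, the neuropilin genes Nrp2 (1.31) and Nrp1 (1.29) and Gas1 (1.04), and the netrin receptor gene Unc5c was lower (-1.005). Both Hedgehog targets that could be compared, Foxf1 and Ptch1, were lower. Of 74 transcription factor genes 8 were higher, with Foxd1 (1.74), Twist1 (1.51) and Ebf1 (1.44) after Ebf2 and Ebf3, and 5 lower, with Tbx2 (-1.58) and Hoxb5 (-1.33) beside Foxf1, Tcf21 and Tbx5. Of 14 dissociation genes 0 differed past 2-fold. None of 26 G2/M genes was higher and 5 were lower (median -0.72).

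The direction of these differences was read within subsets of the cells that chose the genes, so a kept direction is no independent support. Clustering without Cxcl12 (below) gave a cluster 3 that held 45.2% of the Cxcl12-high cells. With its cells left out, all 62 higher and all 37 lower genes had the same direction, 36 and 23 past 2-fold, and 64 genes in all were past it. Within cluster 3 alone, 556 Cxcl12-high and 217 Cxcl12-zero cells, 47 and 34 kept the direction but only 3 and 10 were past 2-fold, and Dkk2 had a log2 ratio of 0.35. Calca, Efemp1 and Ebf2 turned to -0.12, -0.29 and -0.02 there. Within cluster 2, 51 and 32 kept the direction, 12 and 10 past 2-fold. Within cluster 1, 46 and 28 did, 20 and 4 past 2-fold. Among cells with no Mki67 or Top2a UMI, 62 and 35 kept the direction, 42 and 24 past 2-fold.

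**Figure D3:**
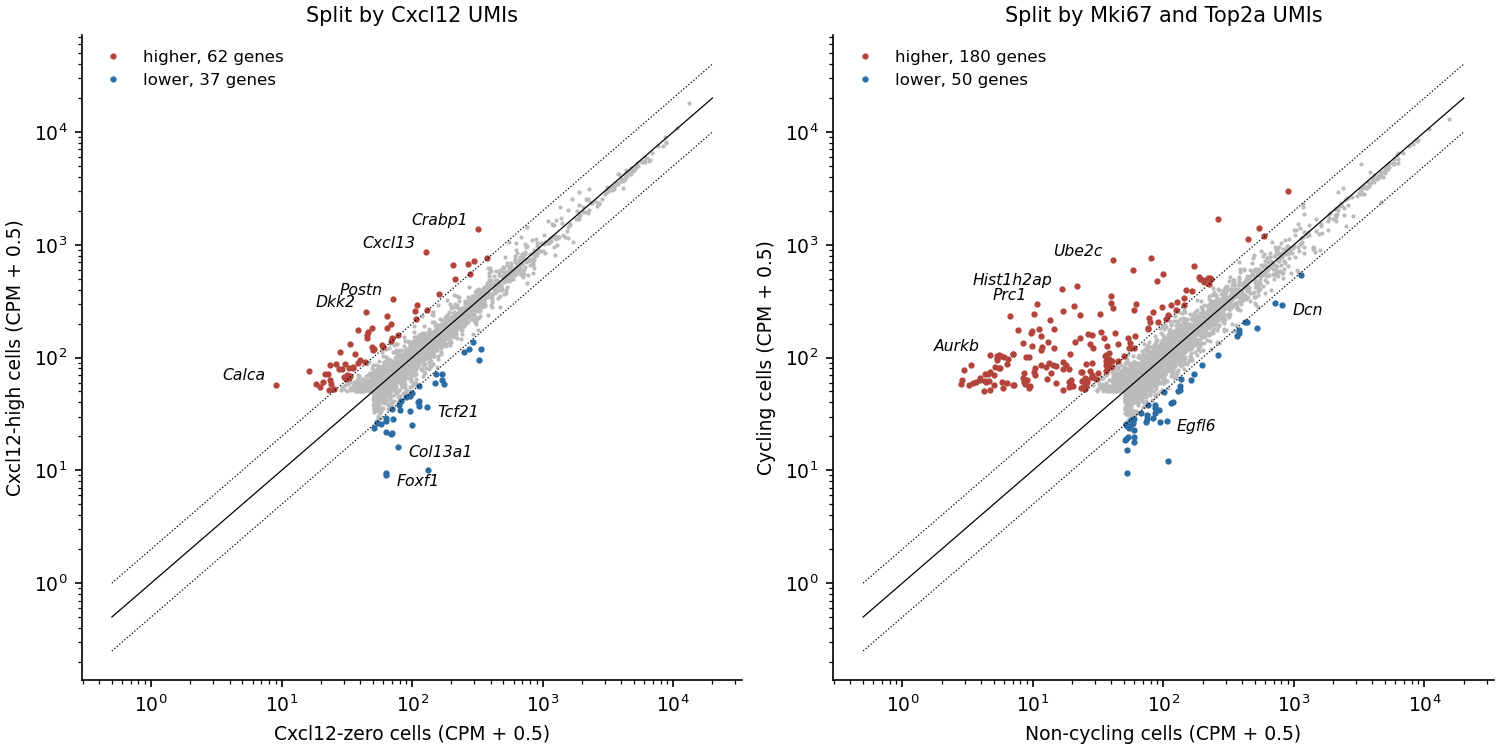
Each point is a gene, with its level in UMIs per 1000000 plus 0.5 on log axes. Left, Cxcl12-high (y axis) against Cxcl12-zero cells (x axis), with Cxcl13 above and Foxf1 below the 2-fold lines; right, cycling (y axis) against non-cycling cells (x axis), where 180 genes lie above and 50 below the dotted 2-fold lines.

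Cycling cells were those with at least 2 UMIs of Mki67 and Top2a, genes of proliferating cells, after thinning. They numbered 2149, 24.6% of the mesenchymal cells (23.7 to 25.5), 1089 cells had exactly 1 such UMI and 5503 had none and are called non-cycling. The share was 27.5% in early smooth muscle cells (25.7 to 29.3), 16.9% in endothelial cells (11.03 to 24.3) and 16.5% in mesenchymal cells at E15.5 (13.9 to 19.3). Unthinned, the 4 shares were 29.6, 39.9, 20.0 and 19.3%. The share of mesenchymal cells follows the depth and the limit, and was 14.8% at 2000 UMIs per cell and 37.0% where 1 UMI was enough. Cycling cells were deeper, with a median of 9258 UMIs before thinning against 6470.

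The share of cycling cells went down with the number of Cxcl12 UMIs. It was 29.6% of Cxcl12-zero cells (28.3 to 31.0), 21.9% of cells with 1 or 2 Cxcl12 UMIs (20.4 to 23.4) and 13.3% of Cxcl12-high cells (11.5 to 15.4). The intervals, which cover counting error only, do not overlap. Cells with Xist had less Cxcl12 and a larger cycling share than cells with a Y-linked UMI (below). The part of the mix of embryos and of depth before thinning in this order was not tested. In the other direction, Cxcl12 stood at 173 CPM in cycling and 302 CPM in non-cycling cells, a log2 ratio of -0.80, short of 2-fold.

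Of 3206 genes compared, 180 were higher in cycling cells (5.61%) and 50 lower (1.56%). The largest ratios belonged to genes of the spindle, of division and of histones, which the rule did not use but which rise in the same phase. Nusap1, a spindle-associated protein, stood at 234 CPM in cycling and 6.19 CPM in non-cycling cells (log2 ratio 5.13). Prc1, which bundles the central spindle, stood at 296 against 10.2 CPM (4.79), and Kif11, the kinesin that separates the spindle poles, at 77.7 against 2.46 CPM (4.72). Esco2 (4.66), Hist1h2ap (4.59), Hist1h1b (4.59), Hmmr (4.53), Aurkb (4.48), Depdc1a (4.46) and Cdca2 (4.37) followed, and Hist1h2ap shares a 60-base stretch with 19 other genes. Of 46 G2/M genes 44 were higher, with a median log2 ratio of 3.42, and of 27 S phase genes 14 were higher, with a median of 1.01.

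Many such genes are known to be controlled through 2 short promoter elements, the CCAAT box bound by NF-Y and the cell cycle genes homology region (CHR) bound by the MuvB complex. Promoters of the leading cycling genes are therefore shown. The RefSeq promoter table used here held 5 of the 10, and those of Depdc1a and Kif11, with both elements, and of Hmmr, with 3 CCAAT boxes and no CHR, are printed as the 100 bases before the RefSeq transcript start (GRCm38.p6, 5′ to 3′ on the gene's strand). Capitals mark the CCAAT box (CCAAT, or ATTGG on the other strand) and the CHR, searched as TTTGAA with its reverse complement TTCAAA and as the palindrome TTTAAA.
Depdc1a, chr3:159495333-159495432, plus strand: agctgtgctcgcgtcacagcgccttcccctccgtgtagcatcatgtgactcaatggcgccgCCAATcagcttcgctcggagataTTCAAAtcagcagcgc
Kif11, chr19:37376282-37376381, plus strand: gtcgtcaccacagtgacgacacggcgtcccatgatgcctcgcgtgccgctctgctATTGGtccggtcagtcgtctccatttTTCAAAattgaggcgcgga
Hmmr, chr11:40733438-40733537, minus strand: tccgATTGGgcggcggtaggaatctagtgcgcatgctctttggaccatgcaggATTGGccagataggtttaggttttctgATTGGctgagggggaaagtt
In Depdc1a the CCAAT box starts 39 bases and the CHR 16 bases before the transcript start, and in Kif11 they start 45 and 19 bases before it. The window of Nusap1 held neither. Prc1 has 2 annotated starts, 1 with both elements in its window and 1 with a CCAAT box alone.

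Both strands of the same 100-base window were searched in every gene of the promoter table. A CCAAT box was found in 54.3% of the 140 genes higher in cycling cells that had a promoter, in 28.0% of the 2537 compared genes and in 21.6% of all 27025. A CHR was found in 20.7%, 7.49% and 11.3%, and both in 17.1%, 2.48% and 2.09%. Of 44 G2/M genes 29.5% held both, and of 30 S phase genes 0 did while 56.7% held a CCAAT box. Among 33 genes lower in cycling cells, 21.2% held a CCAAT box and 18.2% a CHR. A match of letters is a description of the window and shows no binding.

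The genes lower in cycling cells were mixed. Egfl6 stood at 27.1 CPM in cycling and 105 CPM in non-cycling cells (log2 ratio -1.94) and Efemp1 at 26.3 against 93.4 CPM (-1.81). Serpinf1, a secreted serpin (-1.55), Dkk2 (-1.54), the proteases and related genes Adamtsl1 (-1.74) and Adamts18 (-1.59), C1qtnf4 (-1.50) and the histone gene Hist3h2ba (-1.79) belonged to the 10 largest. Hbb-y and Hba-a1 were there too, again through the same 2 cells. Without those cells its ratio was 0.18, in the other direction. Of 7 secreted inhibitors 5 were lower (Dkk2, Sfrp2, Igfbp2, Sfrp1 and Igfbp5), as were 5 of 31 matrix genes, among them Dcn at 295 against 810.5 CPM (-1.46), and 3 of 16 ligands (Rspo3, Slit2 and Igf1). Among all 3206 genes compared 1.56% were lower. Foxf1 was higher, at 84.6 against 35.7 CPM (1.23), and Ebf2, Ebf3 and Twist1 were lower. The 3 collagens of the rule had ratios of -0.59 to -0.77 in thinned cells. The rule acted before thinning, where cycling cells were deeper, so the distance of the groups from its limit was not compared.

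Clustering without Cxcl12, the cell cycle lists, Xist and Y-linked genes gave 13 clusters of 33 to 2106 cells. The genes that lead a cluster could also shape it, unless they were left out, and they are given as a description. The lung field factors differed between clusters. Tcf21 stood at 227 CPM in cluster 4, 160 in cluster 1, 127 in cluster 2 and 119 in cluster 10, and at 12.8 in cluster 3 and 3.98 in cluster 9. The small cluster 13 had 175 CPM. Tbx5 was 111 CPM in cluster 4 and 92.8 in cluster 1, but 4.57 in cluster 5. Foxf1 reached 138.5 CPM in cluster 4 and 93.4 in cluster 1, and stood at 5.70 in cluster 3. Tbx4 stood at 56.6 CPM in cluster 4, 50.4 in cluster 1 and 2.75 in cluster 3. Clusters 6 and 7 lay between, with Tcf21 at 86.8 and 77.5 CPM.

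Cluster 1, with 2106 cells, was led by Nusap1, Prc1, Cdca2, Aurkb and Hmmr, and 79.5% of its cells were cycling. It held 77.9% of all cycling cells. Of its 10 leading genes 5 are on the G2/M list that clustering left out, Nusap1, Cdca2, Aurkb, Hmmr and Aurka. Prc1 and Hist1h2ap, also among the 10, are cycle genes on neither of the 2 lists. Such genes were open to the clustering, so this share is no independent value. Cluster 4, with 850 cells, was smooth-muscle-like by Myh11, Actg2 and Mylk but not by Tagln, and Acta2 stood at 752 CPM in it. Tagln stood at 118 CPM, the median of the clusters, against 284 CPM in cluster 7. Cells high in both Acta2 and Tagln had been set apart by rule. Cluster 4 also had the highest Foxf1 and Cxcl14 levels, the latter 174 CPM. Cluster 10, with 250 cells, was led by Calb2, Pou3f1, Wnt2, Gata5 and Itpr1 and held Wnt2 at 118 CPM and Fgf10 at 51.1 CPM, both signals of distal mesenchyme. Wnt2 was not particular to it, at 121 CPM in cluster 12 and 79.5 CPM in cluster 9. Cluster 2, with 1476 cells, was led by Sgcz, Osr2, Cldn11, Matn4 and 1500015O10Rik.

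Clusters 3, 5, 8 and 9 were led by other genes. Cluster 3, with 1273 cells, was led by Calca, Shox2, Wfdc18, Efemp1 and Dkk2, and Ebf2 and Ebf3 stood at 171 and 178 CPM in it. Cluster 5, with 712 cells, was led by Mab21l2, Stmn2, Hand2, Penk and Nell2, and the homeobox gene Barx1 stood at 130 CPM. Cluster 9, with 315 cells, was led by Pax1, Ptprz1, Mme, Foxd1 and Nrp2, and Prrx1 stood at 1308 CPM against 255 in the other cells. Cluster 8, with 408 cells, had Coch, Wt1, Klf5 and Wnt4 among its leading genes. Pax1 is known from the pharyngeal pouches and the sclerotome, and Barx1 and Hand2 from foregut and pharyngeal mesenchyme. Tbx4 stood at 1.59 to 3.87 CPM in clusters 3, 5, 8 and 9. It was also low in clusters 6, 11, 12 and 13, at 5.61, 4.58, 4.64 and 0 CPM. Hoxa5 stood at 206, 35.5, 231 and 190 CPM in clusters 3, 5, 8 and 9. Whether all cells of any cluster came from lung tissue was not tested. None of clusters 3, 5, 8 and 9 had more than 1 gene of any cell type list among its 10 leading genes (Efemp1 in cluster 3 and Wt1 in cluster 8 are mesothelial markers), and they were left unnamed.

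The remaining clusters held 33 to 580 cells. Cluster 11, with 164 cells, had Cxcl13 at 6654 CPM against 173 CPM in the other cells, a UMI in 100% of its cells, and Dcn at 2646 against 620.3 CPM. With a second random seed 61.6% of its cells stayed together. Cluster 6, with 580 cells, led by Ecm1, Atp1b1, Pdlim3, Gm12840 and Grb14, had the highest Dcn, 2793 CPM. Cluster 7, with 520 cells, was led by Foxs1, Ndufa4l2, Timp4, Heyl and Cox4i2, with the highest Pdgfrb, 409 CPM. It had 1 of the 10 pericyte genes among its 10 leading genes. Their sum was the highest of the clusters, at 443 CPM against 178 CPM in the other cells. Cluster 5 came next in that sum, at 376 CPM. Cluster 12, with 54 cells, was led by the posterior homeobox genes Hoxa9, Hoxc9, Hoxa10 and Hoxc10 with Ren1, the renin gene. Hoxa9 stood at 195 CPM in it and 0.519 in the other cells, and Hoxa5 at 23.2 CPM in it. Whether the cells of cluster 12 came from lung tissue was not tested. Cluster 13, with 33 cells, was mesothelial-like by Upk3b, Lrrn4, Krt19 and Upk1b, with Upk3b at 713.5 against 0.115 CPM.

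**Figure D4:**
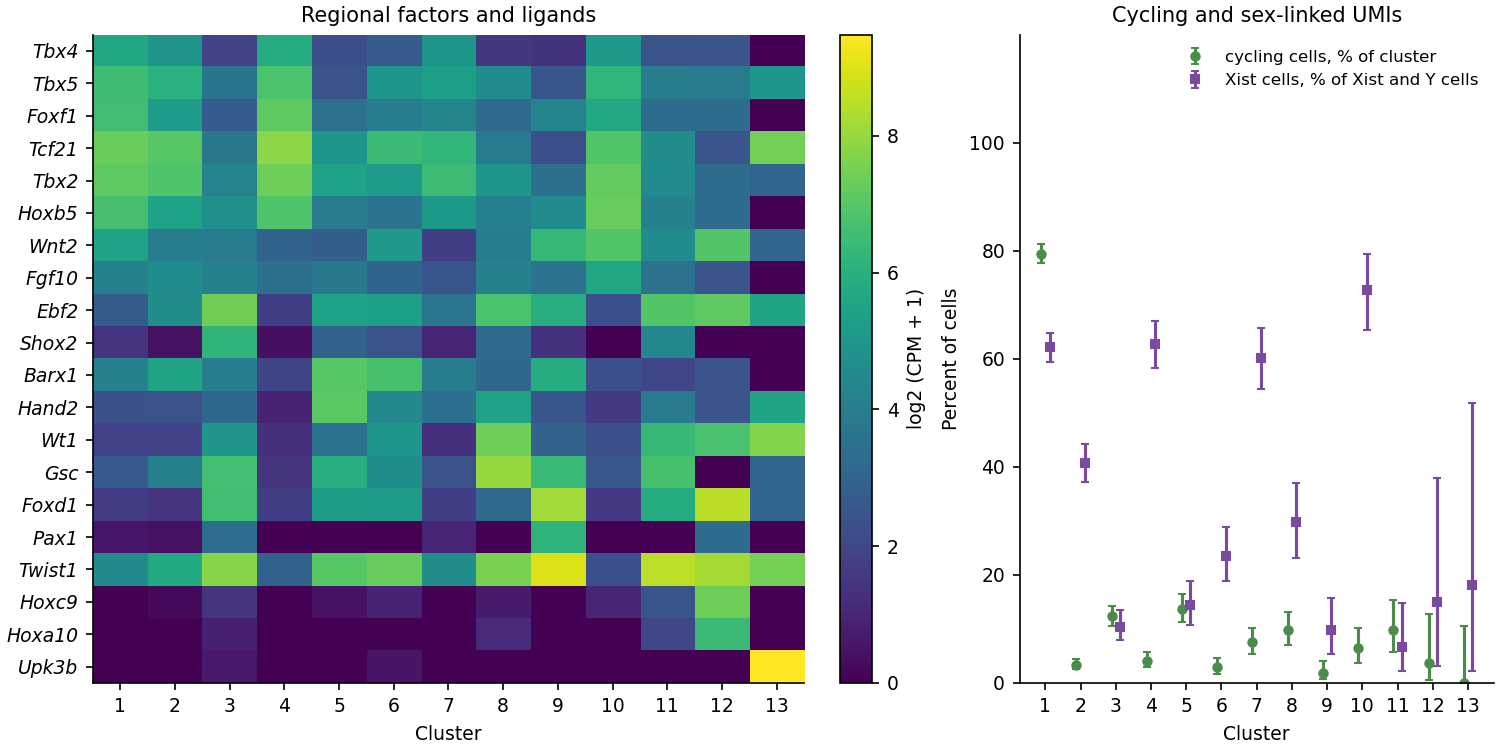
Left, level as log2 of CPM plus 1 (colour) of 20 regional genes, picked after their values were seen, in 13 clusters (x axis). Right, percent of cells (y axis) that were cycling, and percent with Xist among cells with either Xist or a Y-linked UMI, each with exact 95% binomial intervals; the second share is 60.2 to 72.7% in clusters 1, 4, 7 and 10 and 6.58 to 14.5% in clusters 3, 5, 9 and 11.

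The Cxcl12 level was read in each cluster since clustering had not used it. It was highest in clusters 3 and 11, at 662 CPM (640 to 685) and 572 CPM (515 to 633), between 262 and 362 CPM in clusters 5 to 9, and 162, 157, 129, 114.7, 75 and 60.6 CPM in clusters 12, 2, 1, 4, 10 and 13. Cxcl12-high cells made up 43.7% of cluster 3, 39.0% of cluster 11 and 1.60% of cluster 10. The intervals of clusters 3 and 11 did not overlap. Those of neighbours overlapped from cluster 8 (333 to 393) through clusters 9, 7 and 5 to cluster 6 (242 to 284), as did those of clusters 12 and 2, of 1 and 4, and of 10 and 13. Within every cluster but 1, 3, 5 and 13 the share of cycling cells lay between 1.90 and 9.80%.

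Cells of male and of female embryos were mixed in the library, and their shares differed between clusters. After thinning, 1962 cells had a Xist UMI and no Y-linked UMI and 2583 had the reverse. Among these, cells with Xist made up 60.2 to 72.7% of clusters 1, 4, 7 and 10, and 6.58 to 14.5% of clusters 3, 5, 9 and 11. Cxcl12 stood at 180 CPM (171 to 190) in cells with Xist and 294 CPM (284 to 305) in cells with a Y-linked UMI, and 36.3% and 20.5% of them were cycling. Inside clusters the order was not the same throughout. Cxcl12 stood at 120 against 139 CPM in cluster 1, 112 against 128 in cluster 4 and 561 against 663 in cluster 3, but at 170 against 140.5 in cluster 2, 391 against 247 in cluster 6 and 358 against 306 in cluster 7. The intervals overlapped in these clusters except in cluster 6. For cycling, the shares were 81.3 and 80.1% within cluster 1 and 6.29 and 6.94% outside it. Cycle genes outside the lists left out could shape that cluster, so these values are not independent of cycling. Sex and embryo cannot be told apart. In the Cxcl12 comparison within each set, 62 higher and 37 lower genes kept their direction in cells with Xist, 52 and 19 past 2-fold, and 62 and 36 in cells with a Y-linked UMI, 47 and 28 past 2-fold. These genes had been chosen with the same cells included.

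**Figure D5:**
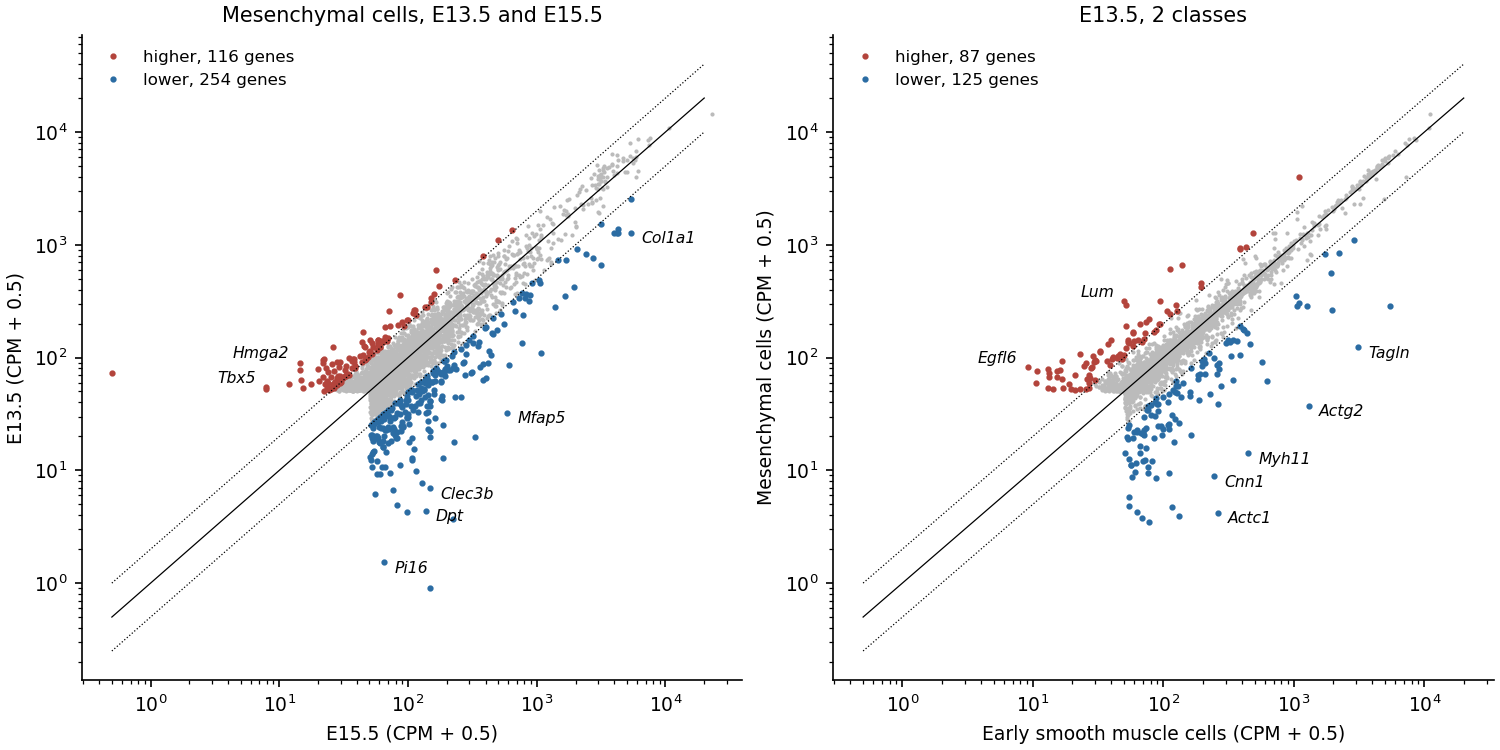
Each point is a gene, with its level in UMIs per 1000000 plus 0.5 on log axes. Left, mesenchymal cells at E13.5 (y axis) against E15.5 (x axis), with 116 genes above and 254 below the dotted 2-fold lines; right, mesenchymal cells (y axis) against early smooth muscle cells (x axis) at E13.5, with Egfl6 and Lum above and Actc1 and Myh11 below.

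The same rule applied to the E15.5 library gave 841 cells, of which 776 reached 4000 UMIs. Of 3282 genes compared, 116 were higher at E13.5 (3.53%) and 254 lower (7.74%), and the 3 collagens of the rule are among the lower. Tbx5, the lung field factor, had the largest ratio apart from haemoglobin. It stood at 54.7 CPM at E13.5 and 7.42 CPM at E15.5 (log2 ratio 2.80, interval 2.29 to 3.54), the chemokine gene Cxcl14 at 52.6 against 7.42 CPM (2.75) and Hmga2, a chromatin protein of fetal growth, at 89.6 against 13.9 CPM (2.65). Iqgap2 (2.44) and Col13a1 (2.31) followed. Of 18 imprinted and fetal growth genes, however, 3 were higher and 4 lower, with a median of -0.53 against 0.06 over all genes. Hbb-y had 2526 UMIs at E13.5 and 0 at E15.5, at least 74.8-fold higher against a floor of 3 counts over the group, but without the 2 haemoglobin-rich cells it had 368 UMIs and the bound was 10.9-fold.

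Of 39 matrix genes compared, 21 were lower at E13.5 and 0 higher, with a median log2 ratio of -1.09 against 0.06 over all genes, of which 7.74% were lower. Mfap5, a microfibril protein, stood at 31.8 CPM at E13.5 and 586 CPM at E15.5 (-4.18), Dcn at 658 against 3144 CPM (-2.25) and Eln at 352 against 1660 CPM (-2.23). Of 10 secreted inhibitors 7 were lower and 0 higher, among them Igfbp7 at 19.3 against 330 CPM (-4.06) and Sfrp2 at 422 against 1935 CPM (-2.19). Pi16 and Dpt, genes known from adventitial fibroblasts, stood at 1.03 against 64.2 CPM (-5.40) and 3.87 against 136.5 CPM (-4.97). Clec3b (-4.43) and Fabp4 (-4.53) were also among the 6 largest. The 15 endothelial genes summed to 111 CPM at E13.5 and 258 CPM at E15.5, and Ramp2, the only 1 compared, was lower (-1.63). Endothelial cells were 8783 of the 11649 kept cells at E15.5 and 155 of 12726 at E13.5. The part of free RNA in these ratios was not tested. Gm10320 (-7.35) shares a 60-base stretch with Sec61b, and the 2 files name different versions of the counting software, so its ratio is uncertain; the part of either was not tested. Tnnt2, a cardiac troponin, was lower too (-5.93), at 3.18 against 224 CPM, most of the sum of 10 cardiomyocyte genes at E15.5 (274.5 CPM); the other 9 were too low to compare.

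Ligands and receptors went both ways, where 3.53% of all genes compared were higher at E13.5 and 7.74% lower. Of 21 ligands 6 were lower at E13.5 and 1, Cxcl14, was higher. Dlk1, at 1260 against 4291 CPM (-1.77), was the most abundant of the lower ones, and Sema3c, a guidance cue, had the largest ratio (-2.62). Of 19 receptors 3 were higher, among them Pdgfrb at 142 against 58.1 CPM (1.28), and 3 were lower, among them the CXCL12 scavenger Ackr3 at 30.3 against 69.7 CPM (-1.19). None of 25 G2/M genes differed past 2-fold.

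Of 69 transcription factor genes 12 were higher and 7 lower, where 3.53 and 7.74% of all genes were. After Tbx5 and Hmga2, Tbx2 (2.05), Hoxb5 (1.72), Sox11 (1.48), Tcf21 (1.28) and Meis1 (1.23) were higher at E13.5, and Klf2 (-2.38), Klf4 (-2.08), Ebf1 (-1.52) and Gata6 (-1.47) lower. Of 17 dissociation genes 7 were lower, 0 higher, and their list summed to 4086 CPM at E13.5 and 6388 CPM at E15.5; the part of dissociation in the comparison was not tested. Cxcl12 had a log2 ratio of 0.69, short of 2-fold. Of the 841 cells at E15.5, 775 had Xist and no Y-linked UMI, so the ages also differ in sex. With only such cells from both ages 545 genes were past 2-fold, 342 of the 370 called genes kept their call, and Tbx5 and Mfap5 had ratios of 3.49 and -5.19. Age, library, gate and litter cannot be told apart.

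Against the 2436 early smooth muscle cells of the same library, 87 of 3096 genes were higher in mesenchymal cells (2.81%) and 125 lower (4.04%). Of 31 matrix genes 5 were higher and 3 lower (median -0.12 against -0.01 over all genes). Egfl6 stood at 82.0 CPM in mesenchymal and 8.66 CPM in smooth muscle cells (log2 ratio 3.17) and Lum, a small proteoglycan, at 315 against 49.8 CPM (2.65). Ly6h (2.83) lay between Egfl6 and Lum, while Slc38a5 (2.60), Ebf3 (2.51) and Cxcl13 (2.50) followed. Hbb-y, carried mostly by 2 cells, was also higher (2.46). Ptn, at 3991 against 1089 CPM (1.87), and Crabp1, at 604 against 112 CPM (2.42), were abundant genes among them. Of 8 secreted inhibitors 5 were higher, while Hhip, which binds Hedgehog ligands, was lower at 8.13 against 87.8 CPM (-3.35).

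Of 17 ligands 5 were higher, with the Wnt agonist Rspo3 (1.85) and Dlk1 (1.37) beside Ptn, and 2 were lower, the PDGF gene Pdgfa (-2.35) and the NOTCH ligand gene Jag1 (-1.62). Among all genes compared 2.81% were higher and 4.04% lower. Eln was lower in mesenchymal cells, at 352 against 1038 CPM (-1.56), and all 3 pericyte genes compared were lower (-1.13 to -1.31).

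All 12 smooth muscle genes compared were lower, 2 of them by rule (Acta2 and Tagln). Actg2, a smooth muscle actin, stood at 36.8 against 1297 CPM (-5.12), Myh11, the smooth muscle myosin, at 13.6 against 445 CPM (-4.98), and Cnn1 at 8.36 against 245 CPM (-4.79). Actc1 (-5.94) and Fbxl22 (-5.04) were among the 6 largest. Foxf1 was lower in mesenchymal cells, at 48.7 against 160 CPM (-1.71), and Twist1 higher, at 106 against 22.4 CPM (2.22). Of 69 factor genes 10 were higher and 4 lower, where 2.81% of all genes compared were higher and 4.04% lower. Cxcl12 barely differed, at 270 against 254 CPM (log2 ratio 0.09, interval 0.02 to 0.15).

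The 155 endothelial cells of the library, 136 of them at 4000 UMIs, set the widest contrast: 404 of 3615 genes were higher in mesenchymal cells (11.2%) and 551 lower (15.2%), rule genes included. Tmem119, Tcf21, Unc5c, Hic1, Efemp1 and Wnt5a had no UMI in the 136 thinned endothelial cells and were at least 18.5, 18.4, 17.3, 17.2, 13.7 and 13.03-fold higher against a floor of 3 counts over the group. All 14 endothelial genes compared were lower, Pecam1 and Cdh5 by rule, with Cldn5 at 2.26 against 1745 CPM (log2 ratio -9.30). Gja4, an arterial connexin, stood at 1.55 against 1546 CPM (-9.56), Icam2 (-9.13) and Sox17 (-9.08) next to it. Cxcl12 was lower in mesenchymal cells, at 270 against 1085 CPM (-2.005, interval -2.13 to -1.885). Of 13 collagens 10 were higher and 3 lower, among them Col18a1 (-6.92), a collagen of vessel basement membranes. Of 78 factor genes 36 were higher and 19 lower.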

How the data were processed

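The authors deposited raw UMI counts per gene and barcode from 10x Genomics 3′ v3 libraries, counted on mm10 (Cell Ranger 3.1.0 in the E13.5 file header and 3.0.2 at E15.5, per the file headers; Seurat 3.2.2 is named in the submitters' processing notes). The sorted counts were not corrected for free RNA. From these counts, cells were filtered at the study's limits, Gm42418 was dropped, and cells were classed by the UMI limits given above. The mesenchymal cells and all gene lists were chosen with earlier results of these data known.

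Summed counts are given in CPM with exact 95% Poisson intervals and shares with Clopper-Pearson intervals. Comparisons used cells thinned to 4000 UMIs, genes of at least 50 CPM in either group, a pseudocount of 0.5 CPM and a 2-fold limit; intervals of ratios are exact conditional binomial ones. The calculation was tested on simulated data. Clusters came from Pearson residuals (theta 100) of 3000 variable genes, 20 principal components, 20 neighbours and Leiden resolution 0.5 (scanpy 1.11.5, leidenalg 0.10.2; seed 1). Scrublet's automatic limit marked 1 of 12726 cells, too few to be of use, so no doublets were removed and some may remain. Before thinning, 479 of the 9446 mesenchymal cells held both a Xist and a Y-linked UMI. Whether doublets or free RNA gave these was not tested. Genes were named as the 15 highest by level, the 15 highest factors, the 10 (Cxcl12 and cycling) or 6 (others) largest ratios each way, the 5 leading genes per cluster and list members; cluster factors come from a ranking by ratio. Positions are from GENCODE M21; of 663 such genes 37 overlap another gene's exons on their strand and 73 share a 60-base stretch with another gene. Depth is 102675363 UMIs at E13.5 and 117522172 at E15.5. The unsorted lung libraries were left out. A few genes that the naming rule picks are not reported here.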

Additional observations from a re-analysis of the deposited data

How the results depend on the processing

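With 1 library at each age, all limits below concern counting and cell choice only, and no replicate could be left out. No paired analysis was possible because each group holds 1 sample and no result comes from a test. Relative to the values given (Cxcl12 at 254.9 CPM; 99, 230, 370, 212 and 955 genes past 2-fold for Cxcl12, cycling, E15.5, smooth muscle and endothelium; 24.6% cycling), Cxcl12 was 277.1 CPM as a mean over cells and 264.0 CPM with at least 10 collagen UMIs. The counts became 227, 430, 710, 439 and 1895 with genes of at least 20 CPM and 50, 113, 202, 120 and 453 at 100 CPM, as more or fewer genes entered. The Cxcl12 count was 64 without cluster 3. The cycling share was 37.0% at 1 Mki67 or Top2a UMI, 18.5% at 3, 14.8% at 2000 UMIs per cell and 23.4% without the 10% of cells with the highest Scrublet scores. Hbb-y reversed in the cycling comparison, to 0.18 in cells with a Y-linked UMI and to 0.18 without the 2 haemoglobin-rich cells. The other 49 recomputed values of these results moved by less than their limit. For comparisons this value is the number of called genes and not which genes were called. At 2000 UMIs per cell 63 of the 99 Cxcl12 genes kept their call, and 55 did in cells with Xist and no Y-linked UMI. Of the ratios of named genes 446 moved by less than their limit and 232 did not, with no other reversal in these settings. Ratios within single clusters, some of which reversed, are not among them. Cluster numbers were 10, 18, 11 and 13 at resolutions 0.3 and 1.0, with 10 components and with a second seed. Cluster 11 kept 61.6% of its cells together with the second seed, where the other 12 kept at least 97.1%; at resolution 1.0 clusters 1 to 3 kept 50 to 61.0%; clusters were also merged. With 10 components clusters 12, 9, 8 and 11 made up 3.19, 22.5, 34.4 and 47.0% of the cluster that took most of their cells, and at resolution 0.3 clusters 10, 7, 9, 11, 4 and 2 made up 8.29, 17.0, 19.6, 21.8, 26.5 and 48.0%. Leaving out Scrublet's called cells was planned for each result, but it called no mesenchymal cell; leaving out high scores, haemoglobin-rich cells or cluster 3, the Xist-only ages and the collagen and gene limits for levels of single genes were added after the data were seen.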
